A study of Arabidopsis thaliana with 32 samples.

Results

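The genes described here carry nitrate into the Arabidopsis root and reduce it to ammonium, together with regulators of that pathway. They are 10 loci chosen by identifier, and a locus counted wherever it stood in the gene column of any of 8 deposited comparison tables, alone or in a comma list. Of the 10, 5 were listed in at least 1 table and 5 in none, among 5162 genes listed anywhere. A table tested 17365 to 20035 loci. The number of genes tested over all tables is not known, so no share of all genes stands beside the 5 of 10. RNA was sequenced from roots dissected out of seedlings of 2 accessions, Col-0 and WS, grown under LED light on solid MS plates in the Veggie plant growth unit, either aboard the International Space Station or in a matching unit on the ground. The ground chamber repeated the orbital temperature, carbon dioxide and lighting 48 h later. Seedlings were preserved in RNAlater at 4 or 8 days, which gives 8 groups of 4 libraries: flight or ground, at each age, in each accession. A library pooled 5 to 8 roots at 4 days and 2 to 3 at 8 days. No mutant or transgene is named in the labels of these libraries.

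Nitrate enters root cells through low-affinity carriers and through a high-affinity system that can take up nitrate when it is scarce. The high-affinity carrier NRT2.1 works at the plasma membrane only together with the small partner protein NRT3.1, also called NAR2.1 or WR3. NRT1.1 is both a carrier and a nitrate sensor. In the cytosol the nitrate reductases NIA1 and NIA2 turn nitrate into nitrite, which NIR1 reduces to ammonium in the plastid with siroheme, whose synthesis needs the methylase UPM1. The plastid glucose-6-phosphate dehydrogenase G6PD3 supplies reducing power. LBD37 and LBD38 are transcription factors that are induced by nitrate and repress nitrogen-responsive genes.

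The tables give 1 pooled FPKM value (sequenced fragments scaled by transcript length and library size) for each group, and no value per library, so the depth of each library is unknown and the spread between libraries can be seen only through the authors' statistic. A table lists only loci with a Cuffdiff q-value of 0.05 or less, and such a locus is said to be called, to rise or to fall. A gene that is not listed has no level in that table, and its absence does not show that it stayed the same. Each group enters a flight comparison and an age comparison, so calls of a gene in comparisons that share a group are not independent. Each fold change is a log2 ratio of flight to ground or of 8 to 4 days, and ± gives its standard error, obtained by dividing it by the statistic in the table. Of the 14 calls of members, 6 have a 95% interval from that error that covers 0, because Cuffdiff takes its p-value from another calculation. The smallest Cuffdiff p-value in every table is 5e-05, which 79 to 934 loci of a table share. Such loci have the same q-value within a table, so that q-value does not rank them. In bulk roots, fewer cells of a type and less RNA per cell cannot be told apart.

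The sequences directly upstream of the 4 genes called in Col-0 are shown for a search of nitrate-related motifs. They are the 250 bases before the annotated start of each gene, read from the RefSeq assembly TAIR10.1, 5′ to 3′ on the gene's own strand. Capitals mark GAATC or its reverse complement GATTC, a short sequence bound by the nitrate-responsive repressor HRS1 and its relatives.
NRT2.1, chr1:2523773-2524022, plus strand: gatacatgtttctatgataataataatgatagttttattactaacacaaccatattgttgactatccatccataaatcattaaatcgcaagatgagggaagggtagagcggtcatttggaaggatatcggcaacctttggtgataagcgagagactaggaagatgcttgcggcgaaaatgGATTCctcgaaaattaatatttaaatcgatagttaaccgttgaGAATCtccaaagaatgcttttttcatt
NRT3.1, chr5:20435930-20436179, plus strand: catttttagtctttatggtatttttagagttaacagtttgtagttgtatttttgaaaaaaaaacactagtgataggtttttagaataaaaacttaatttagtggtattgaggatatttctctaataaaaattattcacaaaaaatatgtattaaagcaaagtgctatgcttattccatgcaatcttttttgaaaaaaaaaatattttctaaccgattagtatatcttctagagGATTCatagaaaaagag
NIA1, chr1:29239485-29239734, minus strand: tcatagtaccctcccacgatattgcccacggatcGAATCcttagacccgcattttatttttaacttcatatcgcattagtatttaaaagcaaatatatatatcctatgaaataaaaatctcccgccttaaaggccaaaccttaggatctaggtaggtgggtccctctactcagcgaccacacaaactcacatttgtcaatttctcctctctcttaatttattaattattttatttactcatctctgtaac
LBD38, chr3:18514016-18514265, plus strand: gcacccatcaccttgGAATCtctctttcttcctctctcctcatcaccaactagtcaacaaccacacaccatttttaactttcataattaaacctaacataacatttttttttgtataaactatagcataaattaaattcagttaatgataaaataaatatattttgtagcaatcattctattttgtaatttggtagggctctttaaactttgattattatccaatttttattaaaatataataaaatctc
GAATC stood on either strand in 7 of the 10 members' windows, compared with 38.8% of the 27443 windows of protein-coding genes. NRT2.1 held it at 2 places, 70 to 66 and 27 to 23 bases before the start, and NRT3.1 at 17 to 13 bases before the start. The pattern of the nitrate-responsive element, CTT and AAG separated by 10 bases, was present in the window of UPM1 alone among the members and in 8.02% of all windows. GACNCTT and the G-box CACGTG were in 0 of the 10 windows, against 7.18% and 6.49% of all windows. The deposited NIA1 locus reaches into its window and the Col-0 NRT3.1 locus covers its window whole. No test was made of these shares, both strands were searched, and a match is only a match of letters.

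The high-affinity uptake pair was lower at 8 days than at 4 days. NRT2.1 fell in all 4 age comparisons, and NRT3.1 fell in 3 of them, those of flight and ground Col-0 and of flight WS. NRT2.1 (AT1G08090) fills the deposited Col-0 locus at TAIR10 chromosome 1, 2524076 to 2526164. Its level in flight Col-0 roots was 2.82 FPKM at 4 days and 0.313 FPKM at 8 days, a change of -3.17 ± 1.01 (Cuffdiff q = 0.00446) in the authors' deposited table. In ground Col-0 roots it stood at 4.38 FPKM at 4 days and 0.662 FPKM at 8 days, -2.72 ± 0.73 (Cuffdiff q = 0.00107) in the authors' deposited table. These were among the larger decreases of their tables, 15th by size of 691 lower loci in flight and 16th of 1102 on the ground. In flight WS roots NRT2.1 went from 5.54 to 1.35 FPKM, -2.04 ± 0.76 (Cuffdiff q = 0.00218), in the authors' deposited table. In ground WS roots it went from 4.41 to 1.86 FPKM, -1.25 ± 0.72 (Cuffdiff q = 0.0363), in the authors' deposited table. All 4 levels at 4 days, 2.82 to 5.54 FPKM, lay above all 4 levels at 8 days, 0.313 to 1.86 FPKM, although they come from 4 separate tables. At such low levels a pseudocount of 1 FPKM shrank the Col-0 changes to -1.54 in flight and -1.69 on the ground.

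NRT3.1 (AT5G50200), the partner that NRT2.1 needs, stood an order of magnitude higher and changed less. In flight Col-0 roots it fell from 69.6 FPKM at 4 days to 26.4 FPKM at 8 days, -1.396 ± 0.51 (Cuffdiff q = 0.00174), in the authors' deposited table. In ground Col-0 roots it fell from 102 to 42.3 FPKM, -1.27 ± 0.42 (Cuffdiff q = 0.00107), in the authors' deposited table. In flight WS roots the fall was from 55.1 to 31.5 FPKM, -0.81 ± 0.43 (Cuffdiff q = 0.00218), in the authors' deposited table. It was not called in ground WS roots with age. Per unit of length, therefore, the transcript of the partner protein exceeded that of the carrier in every table that lists both. The NRT3.1 locus in the Col-0 tables runs over 20011 bp, chromosome 5, 20421073 to 20441083, and overlaps 5 annotated genes although NRT3.1 alone is named for it, while the WS locus covers 1590 bp. Whether reads of neighbours entered the Col-0 values was not tested.

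A difference between comparisons was tested only for single-gene loci called in both of them. The age changes of NIA1 and NIA2 therefore could not be tested, nor could any difference of NRT3.1 that involves ground WS. The age effects of NRT2.1 and NRT3.1 that could be tested were not distinguishable between flight and ground or between accessions. Each 95% interval of the difference covered 0. For NRT2.1 in Col-0 the flight change minus the ground change was -0.45, with a 95% interval from -2.89 to 2.00, and in WS it was -0.79, from -2.85 to 1.26. For NRT3.1 in Col-0 that difference was -0.12, from -1.41 to 1.17. Between accessions, NRT2.1 fell more in Col-0 than in WS by point estimate, with Col-0 minus WS at -1.13 in flight (-3.62 to 1.35) and -1.48 on the ground (-3.49 to 0.53). With a pseudocount of 1 FPKM these became -0.064 and -0.77. The NRT3.1 difference between accessions in flight was -0.59, from -1.90 to 0.72. The intervals are wide, so they leave room for differences of several-fold. Over the 2181 differences of all genes tested together against a normal distribution, 34 passed at an adjusted p of 0.05, and the smallest raw p among those of members was 0.15, with an adjusted p of 0.9997.

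Of the 10 members, 2 were lower and 1 was higher in flight Col-0 with age, beside 6.78% of all loci tested that were called, 3.45% lower and 3.33% higher. In ground Col-0, 2 were lower and 0 higher, beside 11.2% called, 5.54% lower and 5.69% higher. In flight WS, 2 were lower and 0 higher, beside 6.08% called, 3.42% lower and 2.65% higher, and in ground WS 1 was lower and 1 higher, beside 6.13% called, 3.27% lower and 2.85% higher. Markers of green shoot tissue moved with age as well. Of 18 such genes, 7 were lower in flight Col-0, 5 in ground Col-0, 6 in flight WS and 5 in ground WS, and 0 were higher in any of them. The summed level of the called markers went from 380 to 175 FPKM in flight Col-0 and from 160 to 65.7 in ground Col-0. It went from 547 to 113 in flight WS and from 260 to 106 in ground WS, in the authors' deposited tables. Each sum holds only markers called lower in that comparison, so its direction follows from the calls. The sums cover different genes and are not like amounts. That of flight Col-0 holds a pair of loci for the Rubisco gene RBCS1A, which that of ground Col-0 lacks. The part of green shoot markers in the decreases of NRT2.1 and NRT3.1 was not tested.

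**Figure D1:**
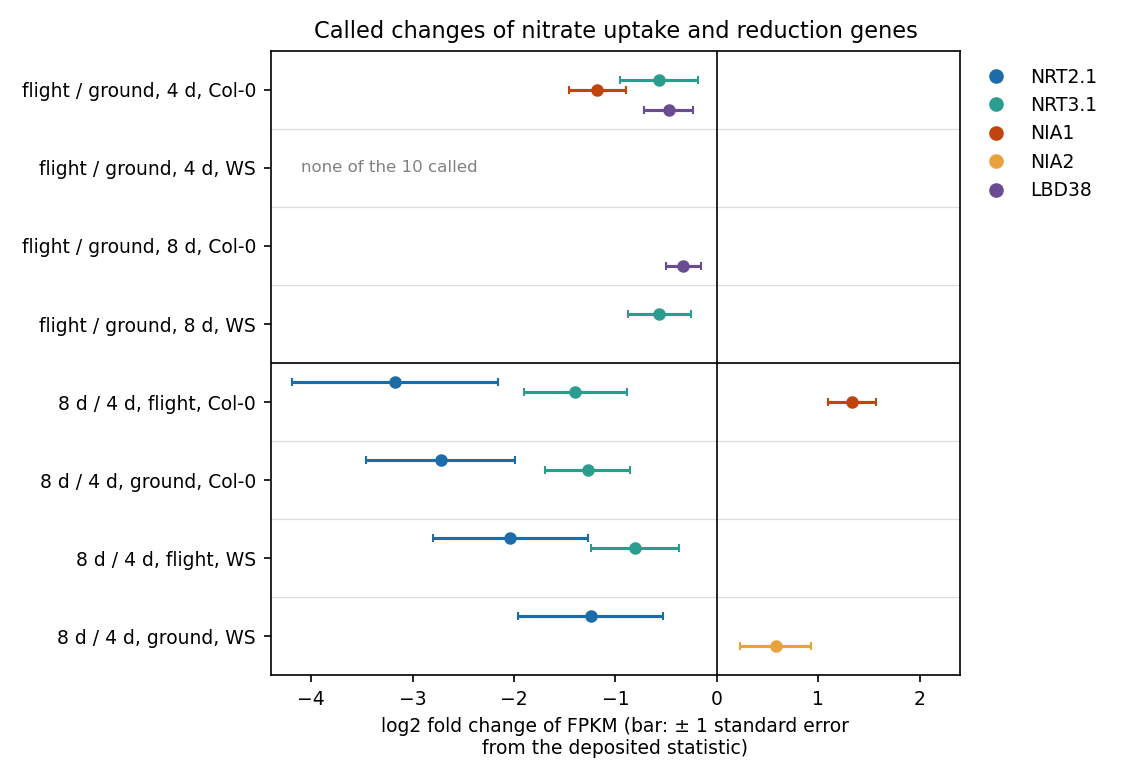
Log2 fold changes of FPKM for every called member, by comparison, with flight over ground in the upper 4 rows and 8 days over 4 days in the lower 4 rows; bars are ± 1 standard error from the deposited statistic. All 5 flight calls lie below 0, the age calls of NRT2.1 and NRT3.1 lie between -3.17 and -0.81, and NIA1 and NIA2 hold the 2 calls above 0.

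Each nitrate reductase gene had 1 increase with age and no decrease with age. The nitrate reductase gene NIA1 (AT1G77760, TAIR10 chromosome 1, 29235718 to 29239590) rose in flight Col-0 roots from 12.5 FPKM at 4 days to 31.4 FPKM at 8 days, 1.33 ± 0.24 (Cuffdiff q = 0.00174), in the authors' deposited table. It was not called with age in ground Col-0 roots or in WS. This rise and the decrease of NIA1 in flight at 4 days, given below, both rest on the 4 day flight Col-0 libraries, at 12.5 and 12.04 FPKM, and are not independent. Its paralog NIA2 (AT1G37130) rose in ground WS roots from 23.6 to 35.3 FPKM, 0.58 ± 0.35 (Cuffdiff q = 0.0165), in the authors' deposited table, and was called in no other table. The transcripts of NIA1 and NIA2 are 3155 and 3205 nt long, and the longest run of identical bases between them is 20 nt. Among called genes with transcripts of 2500 nt or more, 49.3% were higher at 8 days in flight Col-0 and 17.9% in ground WS. The part of transcript length in the rises of NIA1 and NIA2 was not tested. The WS locus of NIA2 spans 42565 bp in the table's own WS coordinates, so the NIA2 level and its rise may include other transcripts, which was not tested.

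Flight against ground, every called member was lower in flight. In 4 day Col-0 roots 3 of the 10 fell and 0 rose, beside 7.21% of all loci called, 4.11% lower and 3.1% higher. NIA1 was at 27.3 FPKM on the ground and 12.04 FPKM in flight, -1.18 ± 0.28 (Cuffdiff q = 0.00185), in the authors' deposited table. NRT3.1 was at 100 FPKM on the ground and 67.1 FPKM in flight, -0.58 ± 0.38 (Cuffdiff q = 0.0451), in the authors' deposited table. LBD38 (AT3G49940, TAIR10 chromosome 3, 18514343 to 18516150), the nitrate-induced repressor, was at 196 FPKM on the ground and 141 FPKM in flight, -0.48 ± 0.24 (Cuffdiff q = 0.00185), in the authors' deposited table. The decrease of NIA1 was the largest of them. NIA1 ranked 112th by size among the 806 lower loci of that table. Long transcripts were more often lower there, with 108 of 158 called genes of 2500 nt or more lower in flight, and the part of transcript length in the NIA1 value was not tested.

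At 8 days only 1 member was called in each accession. In Col-0 LBD38 was again lower, at 195 FPKM on the ground and 155 FPKM in flight, -0.33 ± 0.17 (Cuffdiff q = 0.00468), in the authors' deposited table, where 4.05% of all loci were called, 2.8% lower and 1.26% higher. The 4 day change of LBD38 minus its 8 day change was -0.15, with a 95% interval from -0.72 to 0.43, so the decreases at both ages differed by less than their error. In WS NRT3.1 was lower, at 51.2 FPKM on the ground and 34.5 FPKM in flight, -0.57 ± 0.31 (Cuffdiff q = 0.0194), in the authors' deposited table, where 5.11% of loci were called, 2.75% lower and 2.36% higher. In 4 day WS roots 0 members were called, in a table where 0.715% of loci were called, 0.363% lower and 0.352% higher. That table calls 128 of 17899 loci, and its smallest called change is 0.57 in size. LBD38 has no level or error there, so its change in 4 day WS roots is unknown.

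Green shoot markers moved with flight in Col-0, where 4 of 18 at 4 days and 8 of 18 at 8 days were lower and 0 were higher. The shares of all loci called lower there were 4.11% and 2.8%. The called markers summed to 367 FPKM on the ground and 282 FPKM in flight at 4 days and to 624 and 348 FPKM at 8 days in the authors' deposited tables. In WS, 5 of 18 were higher in flight at 4 days and 0 lower, beside 0.352% and 0.363% of all loci. The called markers there went from 239 to 514 FPKM in sum. At 8 days in WS, where NRT3.1 was lower, 0 were called, beside 5.11% of all loci. Each sum covers only markers called in that comparison, so its direction follows from the calls and the sums hold different genes. The part of green shoot markers in the Col-0 decreases was not tested. Root markers moved as well. In 4 day Col-0 roots 2 of 14 were lower and 2 higher in flight, beside 4.11% and 3.1% of all loci. The peroxidase genes PRX72 (-2.16 ± 0.27) and RCI3 (-0.92 ± 0.23) were lower, and WER (0.92 ± 0.60) and WOX5 (0.73 ± 0.42) were higher, in the authors' deposited table. PRX72 was lower in flight in all 4 tables, at 8 days by -0.35 ± 0.19 in Col-0 and -0.42 ± 0.22 in WS, in the authors' deposited tables. In both WS flight comparisons the PRX72 locus names 2 genes. With age in ground Col-0 roots 5 of 14 were lower and 1 higher, beside 5.54% and 5.69% of all loci. In ground WS 2 were lower and 0 higher, beside 3.27% and 2.85%. In flight 1 was lower and 1 higher in each accession, beside 3.45% and 3.33% of all loci in Col-0 and 3.42% and 2.65% in WS. The part of root markers in the members' changes was not tested. The tissue label could not be checked, because a marker is listed only where it changed.

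**Figure D2:**
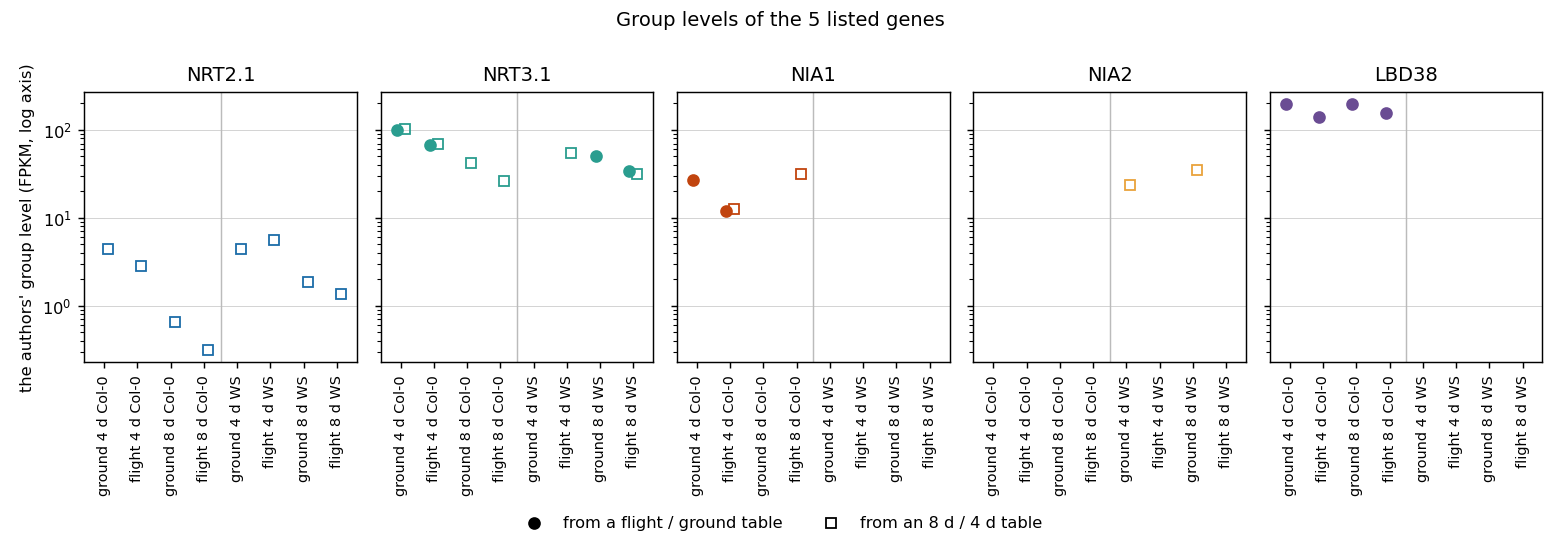
Group levels (FPKM, log axis) of the 5 listed members in the 8 groups, with circles for values from flight against ground tables and squares for values from age tables. An empty position means that no table lists the gene for that group. NRT2.1 is below 6 FPKM in all 8 groups, and LBD38 is the highest, at 141 to 196 FPKM.

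Set side by side across tables, LBD38 was the highest of the 5 listed genes and NRT2.1 the lowest, while the ranges of NRT3.1, NIA2 and NIA1 overlapped. LBD38 stood at 141 to 196 FPKM in the Col-0 groups, NRT3.1 at 26.4 to 102 FPKM in 7 groups, NIA2 at 23.6 and 35.3 FPKM in ground WS, NIA1 at 12.04 to 31.4 FPKM in 3 Col-0 groups and NRT2.1 at 0.313 to 5.54 FPKM in 8 groups, in the authors' deposited tables. NRT2.1 was lower in flight than on the ground at both ages in Col-0 and at 8 days in WS, and higher in flight at 4 days in WS, but these values come from separate tables and no flight table called it. In flight Col-0 roots at 8 days NRT3.1 was at 26.4 FPKM and in ground roots at 42.3 FPKM, again from separate tables, and the 8 day Col-0 flight table did not call it. The group of 4 day ground Col-0 roots gave NRT3.1 as 100 FPKM in one table and 102 FPKM in another, and flight WS roots at 8 days as 34.5 and 31.5 FPKM. Over all genes listed in both tables of a group, the median log2 ratio of the levels ran from -0.12 to 0.13.

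NRT1.1 (AT1G12110), NIR1 (AT2G15620), UPM1 (AT5G40850), LBD37 (AT5G67420) and G6PD3 (AT1G24280) were called in 0 of the 8 tables. The carrier and sensor NRT1.1, the enzyme after nitrate reductase, its cofactor enzyme and the source of plastid reductant therefore have no level here. LBD37 and LBD38 share at most 32 identical bases in a row, and only LBD38 was called. NRT2.2, the close copy of NRT2.1, shares a run of 170 identical bases with it, so reads of the copies could have been exchanged, and NRT2.2 was called in no table.

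By pattern over the 5 tables that call NRT3.1, 19 other single genes were called in all of them. The nearest by root mean square difference of the log2 fold change were AT1G45015 at 0.55, the glucosyltransferase gene UGT74E2 (AT1G05680) at 1.105 and the expansin gene EXPA15 (AT2G03090) at 1.399. AT1G45015 was lower in all 5 tables, as NRT3.1 was. UGT74E2 was higher in both flight comparisons and EXPA15 was higher in all 3 age comparisons, so neither follows the direction of NRT3.1 throughout.

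Other genes of nitrogen uptake, assimilation and regulation were followed in 5 lists of 104 genes in all, of which 37 were called in at least 1 table. Over all genes 5162 were listed in at least 1 table, out of a number tested that is not known. The 37 therefore has no share of all genes beside it and is not read as a result. In 4 day Col-0 roots 13 of the 104 were lower in flight and 2 were higher, beside 4.11% and 3.1% of all loci. The nitrate transport list had 6 lower and 0 higher of 26. The nitrate efflux gene NAXT1 went from 20.7 FPKM on the ground to 9.53 FPKM in flight, -1.12 ± 0.42, in the authors' deposited table. The major facilitator gene AT3G45700 changed by -1.01 ± 0.34 and NRT1.9, a phloem nitrate transporter gene, by -0.90 ± 0.46 in the authors' deposited table. Of 6 ammonium transporters, AMT1;3 fell from 55.2 to 22.7 FPKM, -1.28 ± 0.33, in the authors' deposited table. Of 15 assimilation genes, the glutamine synthetase genes GLN1;1 (-0.47 ± 0.32) and GS2 (-0.37 ± 0.26), the latter also among the green markers, were lower in the authors' deposited table. RFNR2, a root ferredoxin reductase that feeds electrons to nitrite reduction, was at -0.62 ± 0.23 as the only call among 17 genes for reductant and cofactors in the authors' deposited table.

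The 2 increases of that comparison were regulators, the paired BTB and TAZ domain genes. BT2, which is known to repress nitrate uptake genes, rose from 15.1 to 77.0 FPKM, 2.36 ± 0.78, and BT1 from 12.3 to 29.6 FPKM, 1.26 ± 0.34, in the authors' deposited table. NLP6, of the family that activates nitrate-responsive genes, was lower at -0.78 ± 0.31 in the authors' deposited table. In all, 2 of 40 regulators were higher and 3 were lower. The median change of the called genes was -0.90 for the nitrate transport list, all of them lower, and -0.55 for regulators of both directions. The median of all called loci, -0.46, is over 608 higher and 806 lower loci and is not a like measure for genes that all fell.

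**Figure D3:**
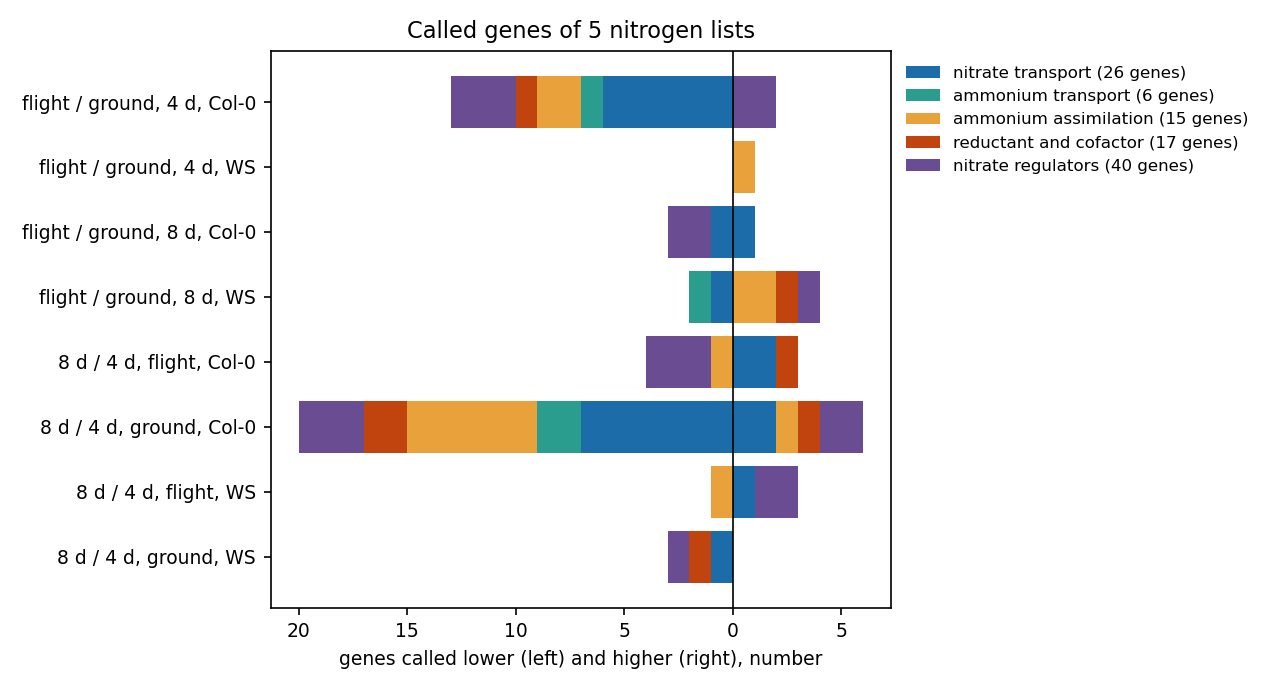
Number of genes of 5 nitrogen lists called lower (left of 0) and higher (right of 0) in each of the 8 comparisons. Ground Col-0 with age has the most calls, 20 lower and 6 higher, followed by flight in 4 day Col-0 with 13 lower and 2 higher.

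With age in ground Col-0 roots, 20 of the 104 genes were lower at 8 days and 6 were higher, beside 5.54% and 5.69% of all loci in the table with the most calls. The nitrate transport list had 7 lower and 2 higher. AT2G38100, annotated as an oligopeptide transport family gene, changed by -1.91 ± 0.86 at 2.28 to 0.606 FPKM, NAXT1 by -1.23 ± 0.38, and NRT1.7, which moves nitrate in the phloem of leaves, by 1.36 ± 0.52 in the authors' deposited table. Both called ammonium transporters fell, AMT1;1 at -1.48 ± 0.78 and AMT1;3 at -1.08 ± 0.29, in the authors' deposited table. Assimilation genes had 6 lower and 1 higher of 15, with the glutamate synthase gene GLU1 at -2.14 ± 1.09 and a level of 1.16 FPKM or less, GLN1;2 at -0.89 ± 0.31 and GS2 at -0.73 ± 0.23 in the authors' deposited table. Reductant and cofactor genes had 2 lower and 1 higher, with the molybdate transporter gene MOT1 at -0.998 ± 0.59, RFNR2 at -0.27 ± 0.20 and a locus of 2 genes holding G6PD4 at 0.89 ± 0.46 in the authors' deposited table. Regulators had 3 lower and 2 higher, led by AT4G15700, a thioredoxin-superfamily gene, at 1.45 ± 0.88, TCP20 at -0.68 ± 0.36 and NAC4 at -0.57 ± 0.33 in the authors' deposited table.

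Both of these comparisons use the 4 day ground Col-0 libraries, so their calls are not independent, and the values are set side by side without counting the overlap. AMT1;3 stood at 55.2 and 56.4 FPKM in that group in the respective tables, against 22.7 FPKM in 4 day flight and 26.6 FPKM in 8 day ground roots, in the authors' deposited tables. NAXT1 stood at 20.7 and 21.1 FPKM against 9.53 and 9.01 FPKM in the authors' deposited tables. NRT3.1 shows the same arrangement, with 100 and 102 FPKM against 67.1 and 42.3 FPKM. The genes of this paragraph were picked after their values had been seen.

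**Figure D4:**
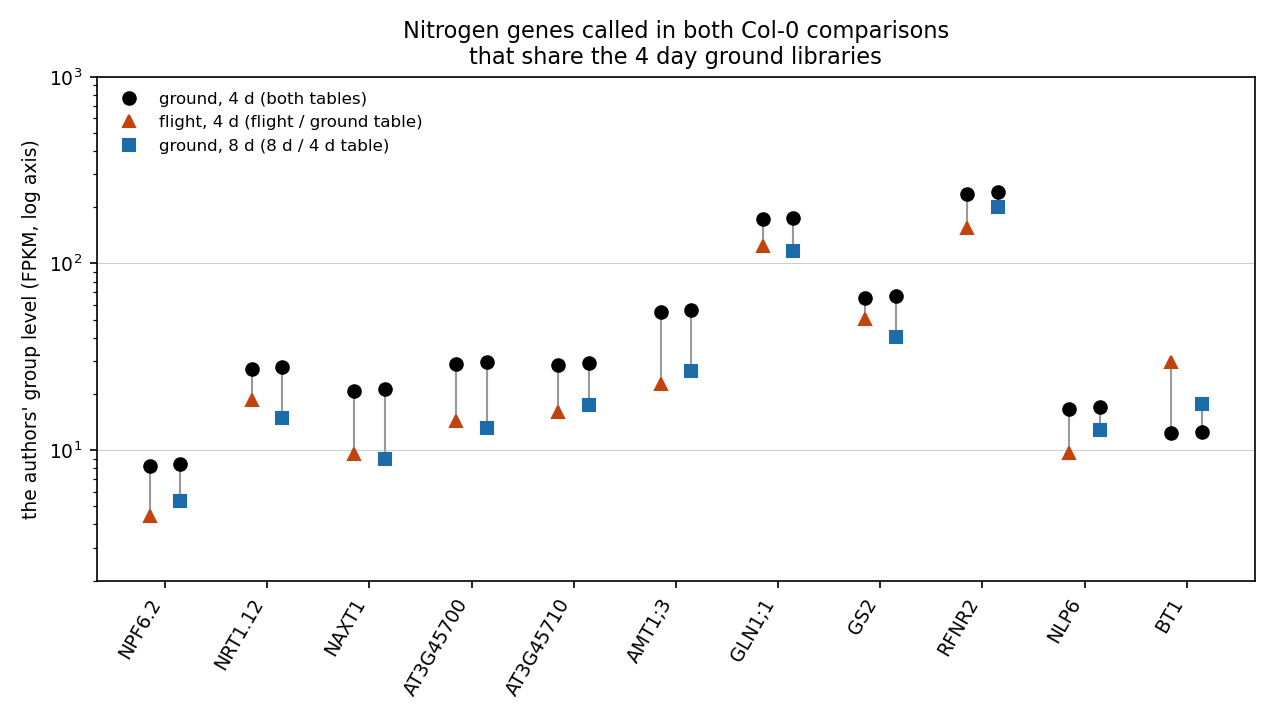
Group levels (FPKM, log axis) of the nitrogen list genes called both in flight against ground at 4 days and in 8 against 4 days on the ground in Col-0; black circles are 4 day ground roots in each table, triangles 4 day flight roots and squares 8 day ground roots. AMT1;3, for example, is at 55.2 and 56.4 FPKM in the shared group, 22.7 FPKM in flight and 26.6 FPKM at 8 days.

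In flight Col-0 with age 3 of the 104 were higher and 4 lower, a share near that of all loci, of which 3.33% were higher and 3.45% lower. AT3G45680, a major facilitator gene beside AT3G45700 in the list, rose from 6.06 to 18.2 FPKM, 1.59 ± 0.34, and NRT1.7 changed by 1.37 ± 0.65 and RFNR2 by 0.38 ± 0.19 in the authors' deposited table. BT2 fell from 79.8 to 30.4 FPKM, -1.39 ± 0.58, in the authors' deposited table. NAC4 at -0.87 ± 0.36, BT1 at -0.53 ± 0.28 and GLN1;2 at -0.79 ± 0.34 were also lower in the authors' deposited table. For BT2, BT1 and RFNR2 these changes and those in flight at 4 days share the 4 day flight Col-0 libraries and are not independent. AT3G45680 also rose with age on the ground in Col-0, by 1.202 ± 0.36, while AT3G45700 was at -1.17 ± 0.35 in the authors' deposited table. In 8 day Col-0 roots 1 gene was higher in flight and 3 were lower, again near the 1.26% and 2.8% of all loci. These were AT3G45680 at 0.43 ± 0.25, NRT1.7 at -0.74 ± 0.42, NAC4 at -0.57 ± 0.33 and the light-response factor gene HY5 at -0.55 ± 0.21 in the authors' deposited table. HY5 was lower in flight in 4 day Col-0 roots as well, from 65.0 to 44.5 FPKM, -0.55 ± 0.30, in the authors' deposited table.

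The WS calls included assimilation genes. The asparagine synthetase gene ASN1, which stores nitrogen as asparagine, was the only gene of the 104 called at 4 days, beside 0.715% of all loci, at 2.104 FPKM on the ground and 8.21 FPKM in flight, 1.96 ± 0.69, in the authors' deposited table. With age in flight WS roots 3 of 104 were higher and 1 was lower, beside 2.65% and 3.42% of all loci. There ASN1 fell from 8.42 to 0.815 FPKM, -3.37 ± 0.86, while BT1 rose by 1.301 ± 0.69, TGA1 by 1.04 ± 0.61 and the xylem-loading transporter gene NRT1.5 by 0.57 ± 0.30 in the authors' deposited table. The fall of ASN1 and its rise in flight at 4 days share the 4 day flight WS libraries and are not independent. At 8 days 4 of 104 were higher in flight and 2 were lower, beside 2.36% and 2.75% of all loci. The glutamate synthase gene GLU2 changed by 0.71 ± 0.40, a locus of 3 genes holding GLT1 by 0.66 ± 0.34, AT3G25790 by 0.64 ± 0.39 and AT1G64190, a phosphogluconate dehydrogenase gene, by 0.50 ± 0.25 in the authors' deposited table. GLU2 and GLT1 have transcripts of 5733 and 7625 nt. Most long transcripts called there went the same way, with 92.1% of 190 genes at or above 2500 nt higher in flight, and the part of length in these increases was not tested. AMT1;3 was lower at -0.82 ± 0.42 and NPF6.2 at -0.86 ± 0.51 in the authors' deposited table, beside the decrease of NRT3.1. With age in ground WS roots 3 of 104 were lower and 0 higher, beside 3.27% and 2.85% of all loci. They were AT3G45700 at -1.61 ± 0.73, the glutaredoxin gene AT1G06830 at -1.29 ± 0.75 and AT1G64190 at -0.57 ± 0.33 in the authors' deposited table.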

How the data were processed

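Root RNA of 32 libraries was measured by RNA sequencing. Per the labels' protocols, cDNA was made from 10 ng of RNA with a full-length kit and 8 PCR cycles, a method that does not mark strand. Per the submitters' processing notes, the reads were handled with STAR 2.5.1b, Trimmomatic 0.36, FastQC 0.11.2 and Picard and the transcripts with Cuffdiff and Cufflinks, on TAIR10, and their settings were not given in the sources at hand. Per the file headers, the FPKM values are 1 Cuffdiff estimate per group in each table. Levels of the same group differed slightly between tables, so tests stay within a table. The deposited log2 fold changes are the authors' ratios of those values, with the sign set here so that a positive value means more in flight or at the later age. The deposited test statistic, a score per locus, and the deposited p-value and q-value are the authors' Cuffdiff results. The tables held 0 columns of values per sample, so nothing was refitted, and the p-values measure only the spread between the libraries the authors used.

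Each standard error is the fold change divided by the deposited statistic. How many loci each table had tested follows from the p-value, rank and q-value of its rows. Differences between comparisons that share no library were taken only for single-gene loci called in both. They were scaled by their combined error (both errors added in quadrature) and set against a normal distribution. Adjustment was by the Benjamini-Hochberg method over all 2181 (scipy 1.17.1, pandas 2.3.3). The procedure treats errors from 4 libraries as known. It was run on simulated fold changes with known normal errors and no selection by q-value. That run therefore cannot check the effect of estimated errors or of testing only called loci. Single-gene Col-0 loci overlapped the TAIR10.1 gene of the same identifier in 5438 of 5438 cases, so Col-0 positions and sequences could be joined, and WS positions were not. The members and lists were chosen with earlier results of these data known. Of 105 list identifiers 1 is not in the reference and was left out, and 20 without a symbol there are printed as identifiers. Named were all called members, up to 3 called genes per list and comparison by size of change, and 3 genes most like the member called in most tables. HY5 in 4 day Col-0 roots was named in addition. Alternatives were a q-value of 0.01, a log2 change of 1, 5 FPKM in the higher group, loci of 1 gene, a pseudocount of 1 FPKM, levels from other tables and errors from the p-value.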

Additional observations from a re-analysis of the deposited data

Results flagged for a closer look

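Opposite directions with age were found for 2 listed genes, and the tests of the difference did not pass adjustment over all genes. With errors taken from the p-values in the authors' deposited tables, all 3 differences below passed (adjusted p = 3.82e-05, 5.22e-05 and 0.00069, in the order given). RFNR2 was higher at 8 days in flight Col-0 and lower on the ground in the authors' deposited tables, a difference of 0.65 ± 0.27 (p = 0.0178, adjusted p = 0.329). BT1 was lower at 8 days in flight Col-0 and higher on the ground in the authors' deposited tables, a difference of -1.03 ± 0.43 (p = 0.0161, adjusted p = 0.316). BT1 also had opposite signs in flight Col-0 and flight WS, where it was higher at 8 days in the authors' deposited tables, by -1.83 ± 0.74 (p = 0.0140, adjusted p = 0.291). These p-values come from a normal distribution and the deposited errors, and no exact test could be made without values per library.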

How the results depend on the processing

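Calls of members depended mainly on the size limit. At a log2 change of 1 or more, members called went from 3 to 1 for flight in 4 day Col-0, from 1 to 0 for flight in 8 day Col-0 and in 8 day WS, and from 2 to 1 for age in flight WS and in ground WS. At a q-value of 0.01 they went from 3 to 2 for flight in 4 day Col-0, with the loss of NRT3.1, from 1 to 0 for flight in 8 day WS and from 2 to 0 for age in ground WS. With a floor of 5 FPKM on the higher level, age in ground Col-0 and in ground WS each had 1 of 2 and age in flight Col-0 had 2 of 3, because NRT2.1 is below that level there. Keeping loci that name 1 gene could not change these counts, since every member locus names 1, including the long NRT3.1 and NIA2 loci. Nitrogen list genes at a log2 change of 1 or more were 5 of 15 for flight in 4 day Col-0, 0 of 4 in 8 day Col-0, 0 of 6 in 8 day WS, 3 of 7 for age in flight Col-0 and 9 of 26 in ground Col-0. At a q-value of 0.01 they were 0 of 1 for flight in 4 day WS, 1 of 4 in 8 day Col-0, 3 of 6 in 8 day WS, 17 of 26 for age in ground Col-0, 2 of 4 in flight WS and 1 of 3 in ground WS.

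With a pseudocount the NRT2.1 difference between flight and ground age changes in Col-0 reversed to 0.15, and that of NRT1.7 to -0.14; neither passed in either form. When errors were derived from the p-values in the authors' deposited tables, 34 passing differences over all genes became 93, and those of RFNR2 (adjusted p = 3.82e-05) and BT1 (adjusted p = 5.22e-05 on the ground comparison and 0.00069 between accessions) were among them. The 7 differences of members did not pass under any setting. No paired analysis was possible because the files carry no value per replicate, and leaving out each replicate was not run for the same reason. Levels taken from other tables could replace a comparison's own in 1 case, with no change of direction. Library depth is unknown, so no limit can be set for genes that are not listed.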
